A study of Mus musculus with 24 samples.

Results

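The genes followed here, Ndp, Fzd4, Tspan12 and Lrp5, were chosen by name as the core of the norrin signal. They are 4 of the 45594 genes in the deposited gene table, each with 1 row on a chromosome, and all 4 were among the 21858 genes with enough counts to be tested. The samples were retinas of C57/Bl6N mice, with no mutation or treatment named in the labels, at embryonic days E11, E12, E14 and E16 and postnatal days P0, P2, P4 and P6, and then P10, P14, P21 and P28. Each of the 12 stages had 2 libraries of polyadenylated RNA, 24 in all. The labels do not say how many animals went into a library or whether the libraries of a stage came from separate animals, so p-values measure only the spread between these samples. E11 and E12 libraries were made from 100 ng of RNA and the others from 1 µg, so the input and the stage cannot be told apart there.

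Norrin, the product of Ndp, is a secreted cystine-knot protein that in the mature retina comes mainly from Müller glia. It binds the receptor frizzled-4 on endothelial cells together with the co-receptor Lrp5 (or its relative Lrp6), and the tetraspanin Tspan12 enhances this complex. The signal stabilises beta-catenin, and in mice and people it is needed for the growth of retinal vessels and for the blood-retina barrier. Mutations in each of these genes cause inherited disorders of retinal vessels in people, among them Norrie disease and familial exudative vitreoretinopathy.

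In the GRCm38 annotation Ndp lies on the minus strand at chrX:16885521-16911774 with 3 exons and 131 codons, and Fzd4 on the plus strand at chr7:89404355-89413134 with 2 exons and 537 codons. Tspan12 lies on the minus strand at chr6:21771395-21852515 with 9 exons and 305 codons, and Lrp5 on the minus strand at chr19:3584828-3686564 with 23 exons and 1614 codons in its longest coding model. Of the 4 only Tspan12 overlaps another annotated gene, the antisense gene Gm30270, which had 11.4 counts in all libraries together. RefSeq promoters (build GRCm38.p6) were at hand for Ndp, Fzd4 and Tspan12, and are shown because the 3 differ widely in base composition. Each is the 250 bases before the RefSeq start, 5′ to 3′ on the gene's strand, with matches to a TATA box (TATAAA) or a GC box (GGGCGG) on either strand in capitals.
Ndp, chrX:16911775-16912024, minus strand: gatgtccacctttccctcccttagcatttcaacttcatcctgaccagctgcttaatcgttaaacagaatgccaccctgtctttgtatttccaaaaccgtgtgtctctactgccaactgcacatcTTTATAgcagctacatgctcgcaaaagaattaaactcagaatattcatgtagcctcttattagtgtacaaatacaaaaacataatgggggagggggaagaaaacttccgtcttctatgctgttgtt
Fzd4, chr7:89404116-89404365, plus strand: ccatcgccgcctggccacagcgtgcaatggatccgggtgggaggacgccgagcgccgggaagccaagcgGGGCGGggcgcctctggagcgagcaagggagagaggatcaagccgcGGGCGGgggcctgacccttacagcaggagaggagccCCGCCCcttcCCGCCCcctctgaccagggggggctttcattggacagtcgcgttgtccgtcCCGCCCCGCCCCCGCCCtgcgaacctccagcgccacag
Tspan12, chr6:21852534-21852783, minus strand: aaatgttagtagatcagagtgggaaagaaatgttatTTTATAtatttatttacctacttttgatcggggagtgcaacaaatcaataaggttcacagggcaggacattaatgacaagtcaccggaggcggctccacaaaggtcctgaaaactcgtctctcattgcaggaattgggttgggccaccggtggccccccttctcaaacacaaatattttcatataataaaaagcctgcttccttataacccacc

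The Fzd4 window was 72.8% GC with 25 CpG dinucleotides and 7 GC-box matches, of which neighbours share a base in 1 place. The Ndp and Tspan12 windows were 41.2% and 42.0% GC, with 4 and 5 CpG and 1 TATAAA match each. Over 32851 mouse promoters of the same length the median was 52.4% GC and 6 CpG, 32.7% held GGGCGG and 12.4% held TATAAA. The letters CTTTGA, a form of the TCF/LEF core present in 13.8% of all promoters, were not found in these 3 windows on either strand. Nor were the letters ACGTG, a form of the hypoxia response core present in 16.6%. Other forms of these cores were not searched, so their absence is not shown. A match is a description of letters and not a site.

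Library totals ran from 24567532 to 35898879 counts. Retinal markers were present throughout: the 10 progenitor markers summed to 2822 to 6922 CPM per library between E11 and P2 and to 591 to 636 CPM at P28. Some early libraries carried RNA of tissue next to the retina. The 12 lens markers reached a sum of 3466 CPM in the first E11 replicate and 33.8 in its partner, of 250 and 3351 in the E12 libraries and of 73.1 and 2649 in the E14 libraries, against 3.79 to 4.39 at E16. Results that rest on these stages are given without each of their libraries where that moved them. Markers of pigment epithelium and pigment cells were also high in some later libraries. The 10 pigment markers summed to 179 to 231 CPM at E11 and to 55.1 to 85.1 at P6. Their sum was 188 to 242 CPM at P10 and 136 to 159 at P14, against 32.3 to 56.8 at P21. The part of pigment tissue in the levels of the 4 genes at P10 and P14 was not tested. Levels are TMM-scaled counts per 1000000 (CPM), which are not corrected for gene length.

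All 4 genes varied with age, each by at least 2-fold between its highest and lowest stage, with adjusted p of 3.48e-07 for Ndp, 5.84e-10 for Fzd4, 6.68e-07 for Tspan12 and 4.9e-13 for Lrp5 (edgeR quasi-likelihood F test over 12 stages, Benjamini-Hochberg adjustment). Of all genes tested, 77.3% were called in this way, so being called does not set the 4 apart. Their courses differed from each other. Ndp was lowest at E12 and highest at P14, with an 11.85-fold ratio of stage means. Fzd4 had a U-shaped course, highest at E11 and lowest at P2, with a 7.31-fold ratio. Tspan12 varied least, 2.41-fold between E11 and P2. Lrp5 varied most, 18.5-fold between E14 and P28.

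**Figure D1:**
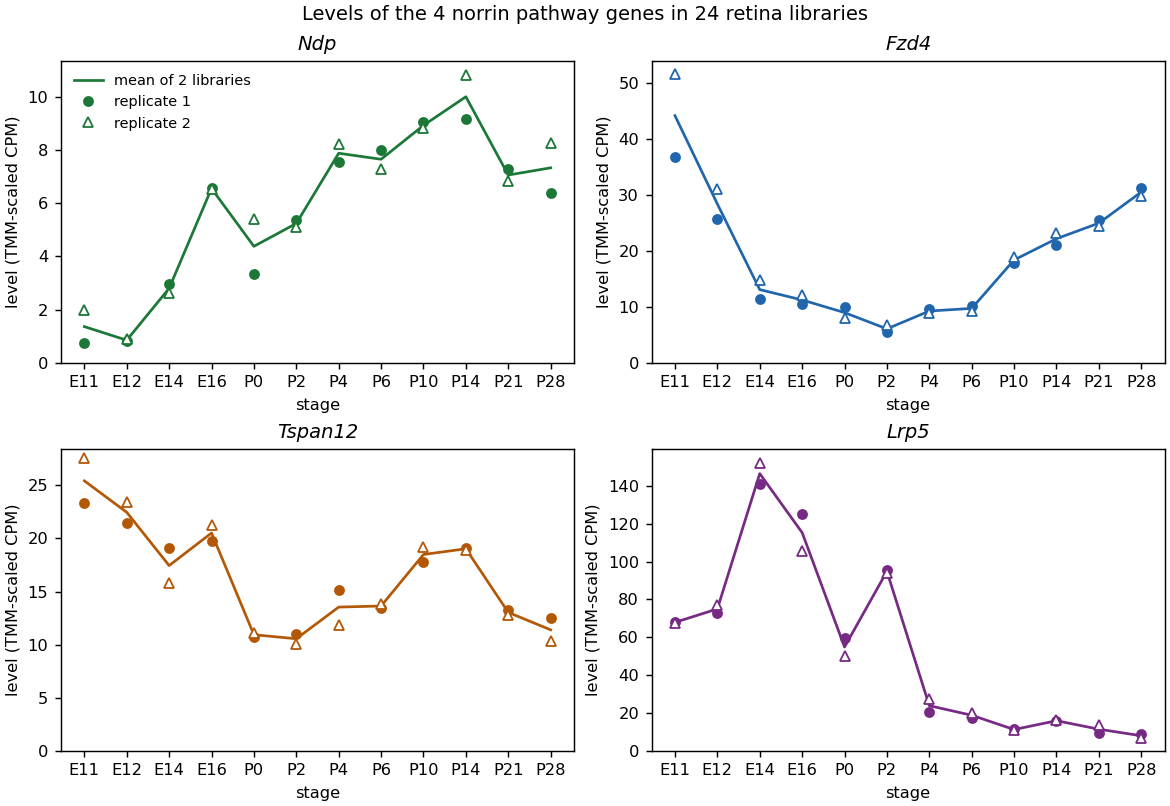
Level in TMM-scaled CPM (y axis, linear, from 0) of Ndp, Fzd4, Tspan12 and Lrp5 at the 12 stages (x axis, spaced evenly). Filled circles are replicate 1, open triangles replicate 2 and lines the mean of the 2 libraries; Fzd4 is high at both ends of the course, and Lrp5 is above 49 CPM in every library up to P2 and under 28 CPM in every later one.

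Ndp, the ligand, was close to the lower end of detection in the early eye. The 2 libraries of each stage had 0.723 and 1.99 CPM at E11, 0.807 and 0.882 at E12, 2.97 and 2.63 at E14 and 6.59 and 6.52 at E16. After birth they had 3.33 and 5.42 CPM at P0, 5.38 and 5.09 at P2, 7.54 and 8.22 at P4 and 8.01 and 7.30 at P6. From P10 they had 9.05 and 8.81 CPM at P10, 9.17 and 10.84 at P14, 7.28 and 6.84 at P21 and 6.40 and 8.26 at P28. Every library from E14 on was above all 4 libraries of E11 and E12. In the order of stage means, from P14 down through P10, P4, P6, P28, P21, E16, P2, P0, E14 and E11 to E12, 5 of the 11 neighbouring pairs had libraries that overlapped. The order among P4, P6 and P28, between P28 and P21, between P2 and P0, and between E11 and E12 is thus within the spread. All libraries of P4 and P6 were above both P21 libraries.

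Ndp rose in the embryo. E16 libraries had 6.59 and 6.52 CPM, against 0.723 and 1.99 in E11 libraries, without overlap (log2 change 2.28, SE 0.315, adjusted p = 1.39e-05, edgeR quasi-likelihood, Benjamini-Hochberg adjustment). In that window 22.7% of all genes were called, 13.6% as higher. Among steps between neighbouring stages, Ndp rose at E14 against E12 (log2 change 1.72, SE 0.339, adjusted p = 0.00127, where 7.52% of genes were called as higher) and at E16 against E14 (log2 change 1.23, SE 0.296, adjusted p = 0.0078, where 5.47% were called as higher). The remaining 9 steps of Ndp and the windows P6 against E16 (log2 0.22, adjusted p = 0.556) and P28 against P6 (log2 −0.06, adjusted p = 0.879) did not pass the edgeR quasi-likelihood test.

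The early Ndp values rest on few reads. The counts were 22 and 58 at E11 and 22 and 26 at E12, and the exact Poisson 95% intervals of the E11 libraries, 0.453 to 1.09 CPM and 1.51 to 2.57 CPM, do not overlap each other (counting error only). Replicate 2 at E11, the library with more Ndp, also had the larger red cell marker sum, 8658 CPM against 3914 CPM in replicate 1, and the smaller lens marker sum; their part in the Ndp difference was not tested. Without E11 replicate 1 the E16 against E11 change was 1.72, and without E11 replicate 2 it was 3.17 on the log2 scale, with the call kept in both. The E12 against E11 change, −0.67 with both libraries and not called, was −1.23 and called without E11 replicate 1 (adjusted p = 0.00387, edgeR quasi-likelihood, Benjamini-Hochberg adjustment) and 0.23 without E11 replicate 2; with all libraries 3.92% of genes were called as lower in that step. Where 1 library of a stage was left out, the other was assumed to vary like the libraries of the other stages. The step at E16 against E14 lost its call without E14 replicate 2 (adjusted p = 0.0798). Over the 11 alternatives run for each, the adjusted p ran from 0.00387 to 0.769 for E12 against E11 and from 3.73e-04 to 0.0798 for E16 against E14 (edgeR quasi-likelihood or DESeq2).

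Fzd4, the receptor, was high first, low around birth and high again in the mature retina. The libraries had 36.8 and 51.7 CPM at E11, 25.8 and 31.0 at E12, 11.4 and 14.8 at E14 and 10.4 and 12.0 at E16. Around birth they had 9.97 and 7.94 CPM at P0, 5.42 and 6.66 at P2, 9.51 and 8.96 at P4 and 10.14 and 9.27 at P6. Later they had 17.8 and 18.9 CPM at P10, 21.08 and 23.3 at P14, 25.6 and 24.4 at P21 and 31.3 and 29.8 at P28. No library from E16 to P6 reached 13 CPM, and every library from P10 on was above 17 CPM. In the order of stage means, 4 of the 11 neighbouring pairs overlapped: P28 with E12, E14 with E16, P6 with P4 and P4 with P0.

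Fzd4 fell between E11 and E16, to 10.4 and 12.0 CPM in E16 libraries, against 36.8 and 51.7 in E11 libraries (log2 change −1.98, SE 0.175, adjusted p = 7.23e-08, edgeR quasi-likelihood, Benjamini-Hochberg adjustment), where 9.11% of all genes were called as lower. It did not pass in P6 against E16 (log2 −0.21, adjusted p = 0.357). It rose between P6 and P28, to 31.3 and 29.8 CPM in P28 libraries, against 10.14 and 9.27 in P6 libraries (log2 change 1.65, SE 0.175, adjusted p = 6.93e-07), where 24.7% of genes were called in either direction and 10.5% as lower. The only single step called was E14 against E12 (log2 change −1.12, SE 0.173, adjusted p = 1.39e-04, where 3.38% of genes were called as lower), and it fell short of 2-fold without E12 replicate 2 (−0.98) or without E14 replicate 1 (−0.94). E12 against E11 (log2 −0.64, adjusted p = 0.0123), P2 against P0 (−0.56, adjusted p = 0.0407) and P4 against P2 (0.61, adjusted p = 0.0154) were past the adjusted p and under 2-fold. With the GC trend of each library removed, as described below for Lrp5, P2 against P0 (−0.51, adjusted p = 0.105) and P4 against P2 (0.48, adjusted p = 0.0645) were not past it. P10 against P6 was just under 2-fold (log2 0.92, adjusted p = 9.32e-04), and the steps at P14, P21 and P28, each against the stage before, had log2 changes of 0.27, 0.17 and 0.29 and did not pass (adjusted p = 0.304, 0.488 and 0.371, edgeR quasi-likelihood).

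Endothelial cells are the best known site of frizzled-4 in the retina, and in bulk tissue fewer cells of a type and less RNA per cell cannot be told apart. All 14 endothelium markers were above 0 in every library, but Kdr, which encodes a VEGF receptor, alone made up 94.5 to 94.9% of their sum at P0. Kdr was left out of the sum after this was seen. The other 13 markers summed to 79.9 to 139 CPM at E11, 54.7 to 73.7 at E16, 26.55 to 26.63 at P0, 108.7 to 114.5 at P6, 267.1 to 269.5 at P14 and 175 to 224 at P28. Of the 14, 1 rose (Kdr) and 5 fell in E16 against E11, 5 rose and 0 fell in P6 against E16, and 3 rose and 2 fell in P28 against P6. Of all genes, 13.6% were called as higher and 9.11% as lower in the first of these windows, and 24.9% and 24.7% in either direction in the other windows.

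Per 100 CPM of the 13 markers, Fzd4 stood at 46.0 and 37.2 CPM for E11, 19.02 and 16.3 at E16, 37.4 and 29.9 at P0, 8.86 and 8.53 at P6, 7.82 and 8.71 at P14 and 13.96 and 17.01 at P28. The ratio was thus higher in both P28 libraries than in both P6 libraries, as was the Fzd4 level itself. Other tissues also moved: the 11 mesenchyme markers summed to 196 to 222 CPM at E11 and 11.8 to 13.4 at E16, and the 10 Müller glia markers to 1394 to 1469 CPM at P6 and 3389 to 3874 at P28. Their part in the changes of Fzd4 was not tested.

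Tspan12, the tetraspanin of the receptor complex, had the flattest course. The libraries had 23.3 and 27.5 CPM at E11, 21.5 and 23.5 at E12, 19.1 and 15.8 at E14 and 19.8 and 21.24 at E16. They had 10.8 and 11.097 CPM at P0, 11.0 and 10.06 at P2, 15.2 and 11.9 at P4 and 13.4 and 13.9 at P6. They had 17.8 and 19.2 CPM at P10, 19.1 and 18.9 at P14, 13.3 and 12.8 at P21 and 12.5 and 10.3 at P28. Up to E16 every library was above 15 CPM, every library of P0 and P2 was under 12 CPM, and P10 and P14 were again above 17 CPM. In the order of stage means 7 of the 11 neighbouring pairs overlapped, more than for the other 3 genes. With the GC trend of each library removed, the Tspan12 mean was 10.28 CPM at P0, 12.28 at P2 and 11.04 at P28. The lowest stage was then P0 and not P2.

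No window or step of Tspan12 reached both thresholds. The largest step was P0 against E16, with 10.8 and 11.097 CPM in P0 libraries, against 19.8 and 21.24 in E16 libraries (log2 change −0.91, SE 0.141, adjusted p = 2.43e-04, edgeR quasi-likelihood, Benjamini-Hochberg adjustment), which is under 2-fold. P6 against E16 (log2 −0.59, adjusted p = 0.00215), P10 against P6 (log2 0.44, adjusted p = 0.0307) and P21 against P14 (log2 −0.55, adjusted p = 0.00756) were also past the adjusted p and under 2-fold in the same fit. P10 against P6 was not past it with counts summed over transcripts (log2 0.28, adjusted p = 0.126) or with no filter on low counts (log2 0.43, adjusted p = 0.123). P21 against P14 was not past it with the GC trend removed (log2 −0.28, adjusted p = 0.149, edgeR quasi-likelihood). In the main fit, E16 against E11 (log2 −0.31, adjusted p = 0.0785) and P28 against P6 (log2 −0.26, adjusted p = 0.14) were not past the adjusted p. Both depended on the processing: over 12 alternatives each, the adjusted p (edgeR quasi-likelihood or DESeq2) ran from 0.0211 to 0.407 for E16 against E11, and from 0.00261, with counts summed over transcripts (log2 −0.53), to 0.586 for P28 against P6. Every one of these alternatives stayed under 2-fold. Beside these low levels, the 13 endothelium markers without Kdr summed to 26.55 to 26.63 CPM at P0 and 37.16 to 37.30 at P2, within the range of the E14 libraries, 15.36 to 43.92 CPM, where Tspan12 was higher; the part of endothelium in the course of Tspan12 was not tested.

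Lrp5, the co-receptor, was abundant up to P2 and low afterwards. The libraries had 68.0 and 67.7 CPM at E11, 72.8 and 77.2 at E12, 141 and 152 at E14 and 125 and 105 at E16. They had 59.8 and 49.9 CPM at P0, 95.4 and 94.2 at P2, 20.2 and 27.4 at P4 and 17.5 and 20.02 at P6. They had 11.5 and 10.9 CPM at P10, 15.7 and 16.01 at P14, 9.34 and 13.4 at P21 and 9.04 and 6.79 at P28. The lowest library up to P2 was above the highest library from P4 on. In the order of stage means only P21 and P10 overlapped among the 11 neighbouring pairs.

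Lrp5 fell in P6 against E16 and in P28 against P6. P6 libraries had 17.5 and 20.02 CPM, against 125 and 105 in E16 libraries (log2 change −2.62, SE 0.174, adjusted p = 1.71e-09, edgeR quasi-likelihood, Benjamini-Hochberg adjustment), and it was the only one of the 4 genes called there, where 24.9% of all genes were called and 11.7% as lower. P28 libraries had 9.04 and 6.79 CPM, against 17.5 and 20.02 in P6 libraries (log2 change −1.24, SE 0.176, adjusted p = 1.77e-05), where 10.5% of genes were called as lower. Before that, E16 against E11 was past the adjusted p and under 2-fold (log2 0.77, adjusted p = 9.14e-04). Progenitor markers fell in the same interval, with 8 of 10 called as lower in P6 against E16 and a sum of 1120 to 1185 CPM at P6, against 5320 to 5392 at E16; their part in the change of Lrp5 was not tested.

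By steps, Lrp5 fell at P0 against E16 (log2 change −1.07, SE 0.164, adjusted p = 2.04e-04, where 3.03% of genes were called as lower) and at P4 against P2 (log2 change −1.99, SE 0.17, adjusted p = 4.35e-07, where 7.28% were called as lower), by edgeR's quasi-likelihood test with Benjamini-Hochberg. The fall at P0 was under 2-fold without E16 replicate 1 (−0.94) or without P0 replicate 2 (−0.95). The rise of the mean at E14 against E12 was just under 2-fold (log2 0.97, adjusted p = 3.29e-04) and passed 2-fold with no filter on low counts (1.01), without E12 replicate 2 (1.01) or without E14 replicate 1 (1.02). P2 against P0 was past the adjusted p and under 2-fold (log2 0.79, adjusted p = 0.00345).

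The local maximum of Lrp5 at P2 moved with GC content. The Lrp5 transcript is 57.9% GC, in the top decile of genes, whereas Ndp (46.6%), Fzd4 (47.0%) and Tspan12 (40.1%) are lower. In P2 against P0 the median log2 change was 0.54 in the decile of genes richest in GC and −0.35 in the poorest, and in P4 against P2 it was −0.82 and 0.37. When the GC trend of each library was removed, an alternative added after these values were seen, Lrp5 averaged 54.9 CPM at P0, 69.9 at P2 and 28.16 at P4, with a P2 against P0 change of 0.35 (adjusted p = 0.141, edgeR quasi-likelihood, Benjamini-Hochberg adjustment) and a P4 against P2 change of −1.31 (adjusted p = 6.64e-06), still called. Over 11 alternatives the adjusted p of these steps ran from 5.47e-06 to 0.141 and from 4.72e-28 to 3.16e-05 (edgeR quasi-likelihood or DESeq2). The windows kept their calls, with −2.46 in P6 against E16 and −1.35 in P28 against P6, and the E14 against E12 change became 0.43. The source of the GC trend was not tested.

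**Figure D2:**
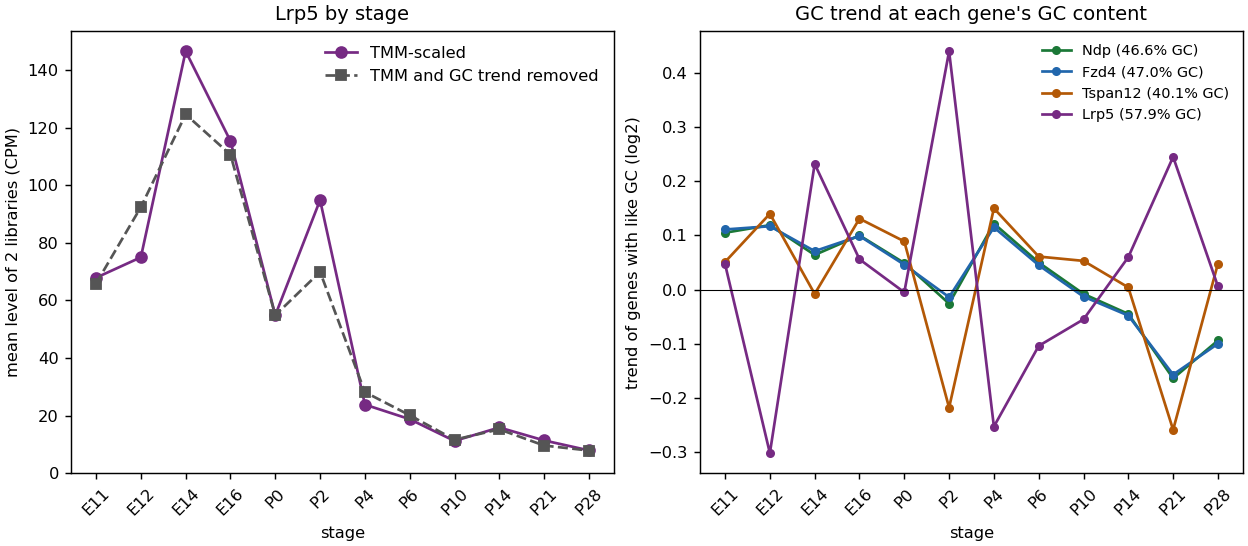
Left, mean Lrp5 level of 2 libraries in CPM (y axis) by stage (x axis) after TMM scaling (circles) and with the GC trend also removed (squares, dashed). Right, log2 trend (y axis) of genes with the GC content of each of the 4 genes, by stage; at P2 the trend at the GC content of Lrp5 is 0.44, and the P2 level of Lrp5 is 94.8 CPM without and 69.9 CPM with the correction.

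Dividing by transcript length allowed the 4 genes to be compared with each other, in transcripts per 1000000 (TPM) computed from the deposited transcript counts. Tspan12 had the highest TPM of the 4 at E11 (19.8 ± 0.281, against 18.4 ± 1.23 for Lrp5, SD, n = 2 libraries each), and Lrp5 from E12 to P2. Tspan12 was again the highest from P4 to P28. Lrp5 averaged 49.5 ± 3.72 TPM at E14 and 3.15 ± 0.698 at P28, where it was the lowest of the 4. Ndp was the lowest from E11 to E14 (1.03 ± 0.638 TPM at E11) and Fzd4 from E16 to P6 (1.89 ± 0.278 TPM at P2).

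The balance of ligand and receptor transcripts therefore turned over between E14 and E16. The Ndp to Fzd4 ratio of TPM was 0.0671 and 0.135 in the E11 libraries, 0.900 and 0.619 at E14, 2.196 and 1.88 at E16, 3.43 and 2.64 at P2, 2.72 and 2.71 at P6, 1.52 and 1.62 at P14 and 0.721 and 0.976 at P28. The Lrp5 to Fzd4 ratio was 2.24 and 1.60 at E11, 15.14 and 12.66 at E14 and 14.7 and 10.8 at E16. It was 20.2 and 16.3 at P2, 2.03 and 2.57 at P6 and 0.388 and 0.302 at P28. The TPM were not corrected for the GC trend. The mean Lrp5 level at P2 was 94.8 CPM, and 69.9 CPM with that trend removed. Whether the Lrp5 to Fzd4 ratio still exceeds that of E14 and E16 at P2 after such a correction was not tested. The Tspan12 to Fzd4 ratio was above 1 in all 24 libraries, between 1.17 at P28 and 7.34 at P2. These are ratios of RNA in whole retina, across all its cell types, and are given without a test.

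**Figure D3:**
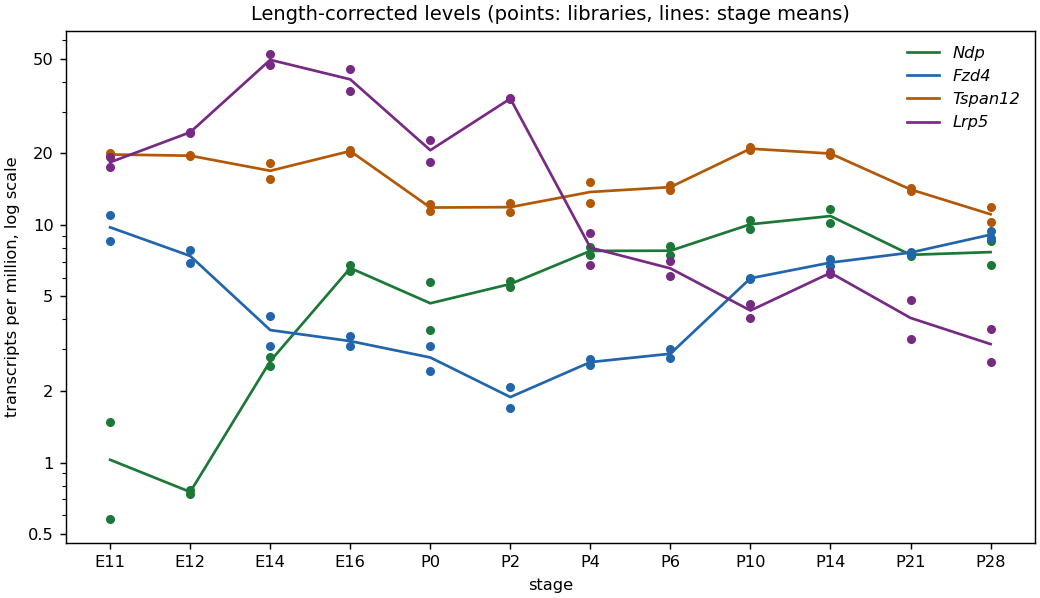
TPM (y axis, log scale) of Ndp, Fzd4, Tspan12 and Lrp5 at the 12 stages (x axis). Points are single libraries and lines the means of 2; Ndp lies under Fzd4 in every library up to E14 and above it in every library from E16 to P14.

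Ndp and Fzd4 have 1 transcript each in the deposited transcript table. Lrp5 has 4, of which the coding Lrp5-001 held 77.8% of the gene's estimated count over all libraries and Lrp5-002, which the annotation classes as subject to nonsense-mediated decay, 16.9%. The share of Lrp5-001 was 82.3 and 81.0% at E11, 84.1 and 86.7% at E16, 64.4 and 75.9% at P6, 46.4 and 50.2% at P21 and 57.7 and 47.7% at P28. That of Lrp5-002 was 11.5 and 6.96% at E11, 12.7 and 12.7% at E16, 33.7 and 23.5% at P6, 51.4 and 38.1% at P21 and 36.04 and 48.6% at P28. Both late stages thus had a larger Lrp5-002 share than E11 and E16 in every library. The share did not climb steadily with age, with 27.55 and 17.1% at E12, 18.5 and 27.8% at P0 and 22.4 and 24.4% at P14. The estimated counts of Lrp5-002 themselves were 221 and 119 at E11 and 130 and 142 at P28, while those of Lrp5-001 were 1578 and 1384 at E11 and 209 and 140 at P28. Lrp5-002 is annotated with 8893 bases against 5161 for Lrp5-001, and reads shared by both are split by a model, so the shares are a description.

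Tspan12 has 6 annotated transcripts, of which Tspan12-002 held 59.3% and Tspan12-001 33.2% of the gene's estimated count. Their shares differed as much between libraries of a stage as between stages: Tspan12-001 had 15.8 and 44.2% in the P0 libraries and 24.8 and 48.3% in the P28 libraries.

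**Figure D4:**
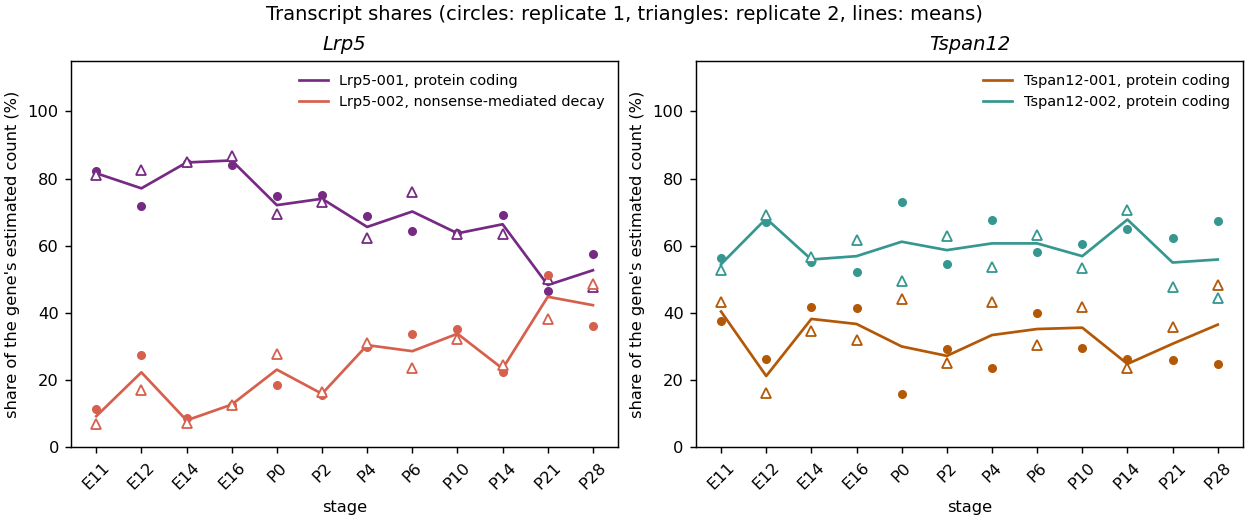
Share in % of the gene's estimated count (y axis) held by the 2 most abundant transcripts of Lrp5 (left) and Tspan12 (right) at each stage (x axis). Circles are replicate 1, triangles replicate 2 and lines their mean; the Lrp5-002 share is 12.7% in both E16 libraries and 36.04 and 48.6% at P28.

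The rest of the pathway was described from gene lists. Of 11 other frizzleds and Wnt co-receptors, 1 rose and 4 fell in E16 against E11, 1 rose and 6 fell in P6 against E16, and 0 rose and 1 fell in P28 against P6, with median log2 changes of −0.58, −1.54 and −0.26. Over all genes tested the medians were 0, 0.01 and 0.04, and the shares called were 13.6% as higher and 9.11% as lower in E16 against E11, 24.9% in either direction and 11.7% as lower in P6 against E16, and 24.7% and 10.5% in P28 against P6. Fzd1 averaged 10.7 ± 0.76 CPM at E16, against 53.5 ± 5.0 at E11 (log2 change −2.32, adjusted p = 1.6e-07, edgeR quasi-likelihood, Benjamini-Hochberg adjustment), and Fzd7 fell with it (−1.63, adjusted p = 3.34e-06). Fzd5, a frizzled of retinal progenitors, averaged 51.9 ± 2.3 CPM at P6, against 314 ± 13 at E16 (log2 −2.60, adjusted p = 3.38e-11), and Fzd2 fell in that window (−2.82, adjusted p = 2.87e-09) and again in P28 against P6 (−3.35, adjusted p = 2.31e-08).

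Among these receptors no gene of the list rose in P28 against P6, the window in which Fzd4 rose (edgeR quasi-likelihood). In that window 24.7% of all genes were called in either direction and 10.5% as lower. A count of 0 among 11 genes therefore does not set the list apart. Without a filter and with DESeq2 the count was also 0, as was the number higher at an unadjusted p under 0.05. Lrp6, the relative of Lrp5, did not pass 2-fold in any window: it averaged 156 ± 11 CPM at E11, 161 ± 2.4 at E16, 136 ± 1.6 at P6 and 137 ± 1.8 at P28. The 4 lower calls of the embryonic window became 2 without E11 replicate 2, and its 1 higher call, Fzd9, was lost without E11 replicate 2 or either E16 library. Without P6 replicate 1 the P28 against P6 count was 2 lower. Fzd6, 1 of the 4, has an identical row on a patch scaffold, so its level is uncertain.

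Of 13 genes of intracellular beta-catenin signalling, 2 rose and 3 fell in E16 against E11, 0 rose and 3 fell in P6 against E16, and 0 rose and 2 fell in P28 against P6 (medians −0.06, −0.34 and −0.25 log2), beside 22.7%, 24.9% and 24.7% of all genes called in either direction. The counts of the later windows do not exceed those shares. DESeq2 also gave 0 for both counts of 0, and at an unadjusted p under 0.05, whatever the fold, 0 genes were higher in P6 against E16 and 2 in P28 against P6 (edgeR). The genes that fell were mostly TCF/LEF factors, the DNA-binding partners of beta-catenin. Tcf7 averaged 5.70 ± 1.1 CPM at E16, against 32.7 ± 3.2 at E11 (log2 −2.52, adjusted p = 1.7e-08, edgeR quasi-likelihood, Benjamini-Hochberg adjustment). Lef1 fell in E16 against E11 (−1.98, adjusted p = 8.08e-04) and in P6 against E16 (−2.27, adjusted p = 5.3e-04), as did Tcf7l1, with −1.73 (adjusted p = 1.23e-06) in the second of these. Tcf7l2 (−1.32, adjusted p = 0.00192) and the scaffold gene Axin1 (−1.02, adjusted p = 4.57e-06) fell in P28 against P6, and that count was 1 without P28 replicate 1. Ctnnb1, which encodes beta-catenin itself, averaged 455 ± 3.7 CPM at P28, against 866 ± 55 at P6, a change under 2-fold (log2 −0.93, adjusted p = 8.73e-08).

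Of 14 beta-catenin targets and endothelial barrier genes, 0 rose and 5 fell in E16 against E11, 2 rose and 2 fell in P6 against E16, and 1 rose and 2 fell in P28 against P6 (medians −1.14, 0.29 and −0.16 log2), where 22.7%, 24.9% and 24.7% of all genes were called; the counts of the later windows are near those shares. The count of 0 was also 0 with DESeq2, with 4 genes higher at an unadjusted p under 0.05 whatever the fold (edgeR), and was 2 with scaling to library size alone, and 1 without either E11 library. Slc38a5, a glutamine transporter of retinal endothelium, averaged 0.414 ± 0.20 CPM at E16, against 3.41 ± 2.4 at E11 (log2 −3.03, adjusted p = 3.89e-04, edgeR quasi-likelihood, Benjamini-Hochberg adjustment). It then had 4.51 ± 0.67 CPM at P6, against 0.414 ± 0.20 at E16 (log2 3.44, adjusted p = 1.09e-04), and 1.22 ± 0.34 CPM at P28, against 4.51 ± 0.67 at P6 (log2 −1.88, adjusted p = 0.00638). Tnfrsf19 fell in E16 against E11 (−2.81, adjusted p = 9.96e-09), and Notum, a secreted Wnt inhibitor, fell in P6 against E16 (−4.22, adjusted p = 2.97e-05).

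Axin2, a negative feedback target of beta-catenin, rose in P28 against P6, to 26.1 ± 0.48 CPM at P28, against 11.4 ± 0.097 at P6 (log2 1.19, adjusted p = 6.1e-05, edgeR quasi-likelihood, Benjamini-Hochberg adjustment), the window in which Fzd4 rose and Lrp5 fell. It was the 1 gene of the 14 called higher there, and 2 were called lower, Slc38a5 and Tnfrsf19 (log2 −1.02, adjusted p = 7.67e-04). Apcdd1 (−0.61, adjusted p = 0.00201) and Nkd1 (−0.35, adjusted p = 0.015) were also lower, past the adjusted p and under 2-fold (edgeR quasi-likelihood). Plvap, a gene of leaky vessels, averaged 2.15 ± 0.11 CPM at E16, against 6.98 ± 6.4 at E11 (log2 −1.69, adjusted p = 0.0176). In P28 against P6 the barrier gene Mfsd2a was lower, past the adjusted p and just under 2-fold (3.04 ± 0.28 CPM, against 5.85 ± 0.14, log2 −0.94, adjusted p = 8.19e-04, edgeR quasi-likelihood). The barrier genes Cldn5 (3.74 ± 0.29 CPM at P28, against 6.08 ± 0.55 at P6, adjusted p = 0.179) and Sox17 (2.61 ± 0.94, against 0.870 ± 0.51, adjusted p = 0.0959) did not pass there. Cldn5 was highest at P14, with 18.5 ± 0.11 CPM, as was the sum of the 13 endothelium markers without Kdr; the sum of all 14 was highest at P2. The embryonic count of 5 lower was 8 without E11 replicate 1, 3 without E11 replicate 2 and 3 without E16 replicate 1, and the mature count of 2 lower was 1 without P28 replicate 2.

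In the parallel Wnt7 branch, which uses the co-receptors Reck and Adgra2 in brain vessels, 0 of 4 genes rose and 2 fell in E16 against E11, 0 rose and 1 fell in P6 against E16, and 1 rose and 1 fell in P28 against P6 (medians −0.80, −0.53 and −0.30 log2), with 22.7%, 24.9% and 24.7% of all genes called. Both counts of 0 were also 0 with DESeq2 and at an unadjusted p under 0.05 (edgeR). The ligand Wnt7b averaged 0.0287 ± 0.041 CPM at P28 and was called lower than at P6, where it averaged 1.07 ± 0.44 CPM (adjusted p = 0.00138, edgeR quasi-likelihood, Benjamini-Hochberg adjustment). It fell in P6 against E16 as well, where E16 averaged 6.79 ± 2.2 CPM (log2 −2.65, adjusted p = 0.00196). Its embryonic change (−1.73, adjusted p = 0.0177) and that of Wnt7a (−2.66, adjusted p = 0.0469) were both lost without E11 replicate 2 or E16 replicate 2, and 1 of the 2 without E11 replicate 1 or E16 replicate 1. Adgra2 rose in P28 against P6 (log2 1.18, adjusted p = 0.0024), a call lost with the GC trend removed, while Reck averaged 22.3 ± 5.1 CPM at P28, against 26.8 ± 2.9 at P6 (adjusted p = 0.272).

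Of 5 other genes of inherited exudative vitreoretinopathy or retinal non-attachment, 1 rose and 0 fell in E16 against E11, 0 rose and 2 fell in P6 against E16, and 0 rose and 1 fell in P28 against P6 (medians 0, −0.09 and −0.50 log2); of all genes 22.7%, 24.9% and 24.7% were called, so 1 of 5 is near the background. DESeq2 also gave 0 for the 3 counts of 0, and at an unadjusted p under 0.05, whatever the fold, 1 gene, Kif11, was lower in E16 against E11 and 0 were higher in the other windows (edgeR). Atoh7, the ganglion cell factor, averaged 10.5 ± 1.8 CPM at E16, against 2.04 ± 2.8 at E11 (log2 2.36, adjusted p = 0.017, edgeR quasi-likelihood, Benjamini-Hochberg adjustment), a call lost without E16 replicate 2, and 0.0308 ± 0.044 CPM at P6, called lower than at E16. Kif11, a mitotic kinesin, fell to 26.9 ± 4.4 CPM at P6, against 242 ± 49 at E16 (log2 −3.17, adjusted p = 3.23e-11), and to 2.94 ± 0.062 at P28 (log2 −3.19, adjusted p = 1.64e-10). The mature count of 1 lower was 2 without P6 replicate 2 or P28 replicate 1.

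**Figure D5:**
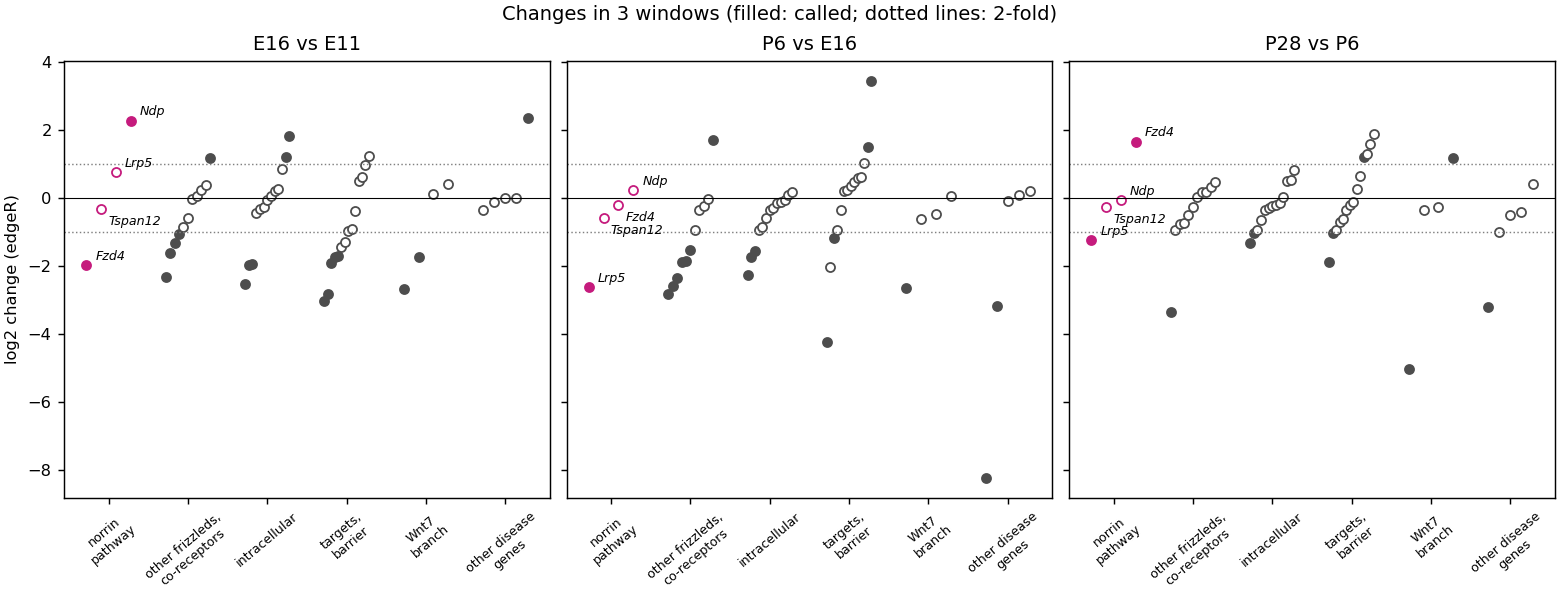
Fitted log2 change (y axis) of the 4 genes (magenta, named) and of the genes of 5 lists (grey) in E16 against E11, P6 against E16 and P28 against P6. Filled points passed adjusted p and 2-fold, open points did not, and dotted lines mark 2-fold; Fzd4 is the 1 gene of the 4 called in opposite directions, at −1.98 in the embryonic and 1.65 in the mature window.

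The 5 genes whose course was most like that of each gene were taken by Pearson's r of log2 CPM over 24 libraries among 12839 genes whose highest stage mean reached 5 CPM, as a description, since libraries of a stage share their age and libraries share depth and base composition effects. The r is given for the first and the last gene named for each. For Ndp these were Dok5 (r = 0.97), Sprn, Ube2ql1, Schip1 and Apba1 (r = 0.96), which all had their lowest mean at E12. For Fzd4 they included Amd1 (r = 0.93), which may share reads with near-identical copies, the Notch ligand gene Jag1, Hapln1 and Tgfbr3 (r = 0.92). For Tspan12 they were the connexin gene Gja1 (r = 0.90), Slc45a3, B4galt4, Arap3 and Prcp (r = 0.87). For Lrp5 they were Midn (r = 0.98), Lrrc75a, Ski, Itpripl1 and Fads1 (r = 0.98), which all had their highest mean at E14 and lowest at P28 and are 51.2 to 59.2% GC. Over the 12 stage means 2 of these 5 genes were again among the top 5 for Ndp and 3 for each of the others.

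Among the 4 genes themselves, r over the 24 libraries was 0.54 between Fzd4 and Tspan12, 0.28 between Tspan12 and Lrp5, −0.32 between Fzd4 and Lrp5, −0.37 between Ndp and Fzd4, −0.48 between Ndp and Tspan12 and −0.59 between Ndp and Lrp5. The 4 genes had been left out of the genes compared above. Their r with each other was below that of every gene named there, the lowest of which was 0.87 for Prcp.

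In the authors' deposited table of log2 changes against E11, which holds 12718 genes, all 4 were listed, in different clusters: Ndp in cluster 16, Fzd4 in 26, Tspan12 in 3 and Lrp5 in 9. The changes listed in the authors' deposited table for E16 against E11 were 2.45 for Ndp, −1.95 for Fzd4, −0.29 for Tspan12 and 0.77 for Lrp5. For P28 against E11 the authors' deposited table lists 2.63 for Ndp, −0.47 for Fzd4, −1.12 for Tspan12 and −3.07 for Lrp5.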

How the data were processed

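Per the labels, directional libraries of polyadenylated RNA were made from Trizol-extracted retina. The authors deposited estimated counts, once by Ensembl gene and once by Ensembl transcript. A further table deposited by the authors holds log2 changes relative to E11, with a p-value (raw and adjusted) and the number of a cluster for each gene. The submitters' processing notes name kallisto 0.42.4, edgeR 3.13.9 and GRCm38.p5. Summarisation to genes, not given in the sources used here, left gene values at 0.846 to 1.21 times the transcript sum for Tspan12 and 0.801 to 1.16 times for Lrp5.

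Estimated counts were rounded to whole numbers and fitted with edgeR 4.0.16 in R 4.3.3 (TMM, quasi-likelihood, filterByExpr with stages as groups and minimum count 10, 1 coefficient per stage, 24 libraries, 12 residual degrees of freedom). A gene was called at a Benjamini-Hochberg adjusted p under 0.05 over the 21858 genes tested and a change of at least 2-fold. Comparisons were all stages together, 3 windows and 11 steps. The standard error (SE) is the absolute log2 change over the root of the F statistic. TPM came from transcript counts and annotated lengths. Depth was 24567532 to 35898879 counts per library. The fit was also run on simulated counts drawn independently for each library. Such counts carry no GC trend and no RNA of neighbouring tissue, so that run cannot show how these affect the results. GC content was known for 99.2% of the genes tested.

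The 4 genes and all lists were chosen with earlier results of these data known. Named by rule were the 4 genes, the 5 most alike per gene (1 of those for Fzd4 is not reported here), the 2 called genes with the largest change per list and window, and 13 genes followed over all stages; other names were chosen after their values were seen. Alternatives were library size alone, RLE size factors, a fit with no filter, a replicate block, summed transcript counts, only the 4 libraries of a window, DESeq2 1.42.0, each library left out, a prior count of 0.5, 12 stage means and, added later, GC-corrected offsets. The numbering of replicates did not pair samples.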

Additional observations from a re-analysis of the deposited data

How the results depend on the processing

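Calls of the 4 genes over 12 stages and in the 3 windows (adjusted p and 2-fold together) were kept under every alternative run. The windows E16 against E11 and P28 against P6 of Tspan12, uncalled throughout, crossed the adjusted p alone under some, and the step calls that changed are named with their genes in the results. With replicate numbers as a block the window changes were 2.30 (Ndp) and −1.97 (Fzd4) in E16 against E11, −2.62 (Lrp5) in P6 against E16, and 1.65 (Fzd4) and −1.24 (Lrp5) in P28 against P6, and no call of the 4 genes changed. Samples with the same number did not deviate together: over 66 pairs of stages the correlation of their deviations ran from −0.057 to 0.127, with 2 pairs over 0.1. The sign of some uncalled changes turned, and the cause was not tested. With GC-corrected offsets these log2 changes were 0.081 for Ndp in P28 against P6, 0.26 for Tspan12 in P2 against P0, −0.013 for Tspan12 in P4 against P2, 0.029 for Ndp in P6 against P4 and −0.017 for Ndp in P28 against P21. For Tspan12 in P14 against P10 the change was −0.052 with library size alone and −0.025 with summed transcript counts. Leaving out 1 library at a time gave ranges for Ndp of −0.26 to 0.11 in P28 against P6, −1.23 to 0.23 in E12 against E11, −0.050 to 0.65 in P2 against P0, −0.10 to 0.023 in P6 against P4 and −0.14 to 0.23 in P28 against P21. For Tspan12 they were −0.12 to 0.015 in P2 against P0, −0.16 to 0.20 in P6 against P4 and −0.013 to 0.098 in P14 against P10. Over all genes, the count called in P2 against P0 was 871, and 483 with GC-corrected offsets or 554 without P0 replicate 2. In P28 against P21 it was 194, and 429 with no filter, 102 with summed transcript counts and 120 with GC-corrected offsets. Without a library it was 724 to 3000 in E12 against E11, 1126 to 1580 in P0 against E16, 547 to 1012 in P14 against P10 and 73 to 99 in P28 against P21. Each E11 and E12 library had 22 to 58 reads of Ndp, and the E11 libraries differed by more than counting error.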
